A study of Mus musculus with 6 samples.

Results

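The Slit, Robo, netrin and Unc5 genes are a set of 10 guidance genes, namely Slit2, Slit3, Robo1, Robo2, Robo4, Ntn1, Ntn4, Unc5b, Unc5c and Dcc. They were taken as every probe set whose platform annotation gives one of these symbols alone, which yielded 20 probe sets of the 45037 tested and 10 of the 18193 genes they name. The data are 6 mouse Affymetrix arrays of lymphatic endothelial cells (LECs), which form the inner wall of lymph vessels. The tumour-associated LECs (3 arrays) came from MDA-MB-435 xenografts, injected under the skin and excised 8 weeks later. MDA-MB-435 is a human tumour line that served as a breast cancer model until its origin was assigned to melanoma. The healthy-tissue LECs (3 arrays) came from mammary skin, labelled healthy, of nude mice (balb-c/nude). The labels do not say whether those mice also bore tumours, or name the strain that carried the xenografts. All samples were cut from sections by laser capture microdissection after a short stain for LYVE-1, a lymphatic hyaluronan receptor, and all passed through 1 round of Ribo-SPIA amplification, which makes enough cDNA from a few cells. Samples are labelled as biological replicates, but none is tied to an animal, so the p-values below measure the spread between samples that may be technical, and 3 arrays a group limit the precision.

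Slit proteins are secreted cues that bind Robo receptors, and netrins are laminin-related secreted cues that bind Dcc and the Unc5 receptors. Both systems are best known from growing axons, where Slits repel, Dcc mediates attraction to netrin-1 and Unc5 receptors mediate repulsion. In vessels, Robo4 is the endothelial member of its family and a stabiliser of the vessel wall, Unc5b is the netrin receptor of endothelial tip cells, and netrin-4 is a basement membrane component. Robo4 and Unc5b have also been linked to each other as binding partners in endothelium.

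No guidance gene passed the test between tumour-associated and healthy-tissue LECs. Of the 20 probe sets, 0 had a limma adjusted p under 0.05 (Benjamini-Hochberg over all probe sets), where 0.00444% of all probe sets did, and 1 had an unadjusted p under 0.05, where 6.36% of all probe sets did. Unc5b had the largest positive difference, with 3.73-fold more signal on its main probe set in tumour-associated LECs, and Slit3 and Robo4 followed among the positive differences with 2.6-fold and 2.25-fold. The most negative differences, -1.61 for a probe set of Ntn4 and -1.44 for Unc5c, came mainly from 1 healthy-tissue array each. Differences were positive for 11 probe sets and negative for 9, with a median of 0.18 on the log2 scale and a range of -1.61 to 1.90. Over all probe sets 55.5% were positive and the median was 0.06. The lowest adjusted p among the members was 0.653. Below, a level is the log2 signal of a probe set on an array, a difference is the tumour-associated mean minus the healthy-tissue mean on that scale, and levels of different probe sets are not comparable.

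Many of these genes were dim, as were many probe sets over the whole table. Each array's background was set at percentile 95 of its 27 bacterial control probe sets. It lay at 3.45, 3.42 and 3.91 in tumour-associated replicates 1, 2 and 3, and at 3.81, 3.28 and 2.96 in healthy-tissue replicates 1, 2 and 3. Of the member probe sets, 5 were above it on all 6 arrays, against 29.4% of all probe sets. On at least 3 arrays 9 were above it, against 22178 of the 45037 probe sets tested. On no array were 5 above it, against 15118 of the 45037. The 5 probe sets above it on all arrays were those of Slit3, 1 of the 2 for Ntn1, both for Unc5b and 1 of the 3 for Dcc.

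The arrays also differed in the cells they represent. LEC markers (9 measured of 10, Lyve1 and Prox1 among them) averaged 7.68, 8.01 and 8.01 in tumour-associated LECs, against 5.81, 6.80 and 6.91 in healthy-tissue LECs, and all 9 had positive differences. Lyve1, the gene of the stained protein, was at 9.41 to 9.65 in tumour-associated LECs, against 3.21, 7.58 and 6.81 in healthy-tissue replicates 1, 2 and 3, so it was below background in healthy-tissue replicate 1. The 15 pan-endothelial markers averaged 5.72 to 6.19 in tumour-associated LECs and 4.62 to 4.74 in healthy-tissue LECs, and the 10 keratinocyte markers 4.47 to 6.30 and 7.42 to 8.03. Markers of nerve and Schwann cells (5 measured of 7), cells in which several guidance genes are studied, averaged 4.86 to 5.15 and 4.59 to 5.07. In none of these lists did a gene pass the test. In such captures, fewer cells of a type and less RNA per cell cannot be told apart.

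The promoters of Unc5b, Robo4 and Slit3 are shown because these members had the largest positive differences. Each runs from 250 bases before to 50 bases after the gene's start in RefSeq, build GRCm38.p6, and 8 of the 10 members had an entry. Capitals mark GGAAG and GGGCGG, each on either strand. GGAAG is a form of the GGAA core bound by ETS factors, and GGGCGG is the GC box bound by Sp1. GGAA before other bases was not marked or counted, and the Unc5b and Robo4 sequences hold it.
Unc5b (chr10:60831532-60831831, minus strand): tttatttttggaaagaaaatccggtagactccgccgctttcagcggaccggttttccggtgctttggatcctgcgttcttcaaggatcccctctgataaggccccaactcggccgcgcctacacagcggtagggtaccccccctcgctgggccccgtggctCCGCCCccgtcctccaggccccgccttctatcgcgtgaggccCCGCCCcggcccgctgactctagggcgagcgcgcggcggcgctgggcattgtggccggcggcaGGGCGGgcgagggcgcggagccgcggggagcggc
Robo4 (chr9:37401722-37402021, plus strand): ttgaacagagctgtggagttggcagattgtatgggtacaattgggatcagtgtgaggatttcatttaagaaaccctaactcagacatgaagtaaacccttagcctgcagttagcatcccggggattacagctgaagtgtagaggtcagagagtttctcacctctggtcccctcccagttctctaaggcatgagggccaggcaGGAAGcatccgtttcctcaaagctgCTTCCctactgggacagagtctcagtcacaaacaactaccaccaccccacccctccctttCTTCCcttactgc
Slit3 (chr11:35121206-35121505, plus strand): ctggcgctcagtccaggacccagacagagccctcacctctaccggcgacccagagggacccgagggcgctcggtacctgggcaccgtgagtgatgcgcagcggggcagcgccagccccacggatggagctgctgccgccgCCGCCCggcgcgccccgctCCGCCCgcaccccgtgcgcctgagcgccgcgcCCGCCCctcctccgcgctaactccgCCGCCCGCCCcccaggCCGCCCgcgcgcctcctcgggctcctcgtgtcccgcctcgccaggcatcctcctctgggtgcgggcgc
The Robo4 promoter held 3 matches to GGAAG and 0 to GGGCGG, while those of Unc5b and Slit3 held 0 to GGAAG and 3 and 6 to GGGCGG, of which 2 in Slit3 overlap. Of 27025 promoters of the same length, 71.1% held GGAAG and 35.9% held GGGCGG. The hypoxia core form ACGTG and the Notch core TGGGAA were searched too. They had 0 matches in these 3 promoters, and 19.7% and 25.5% of all promoters held them. The hypoxia core form GCGTG was not marked or counted, and the Unc5b sequence holds it. These matches describe the letters and say nothing of which factor was bound in the samples.

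Among the ligands, Slit3 had the largest positive difference. Its only probe set (1452296_at) was at 4.11, 5.95 and 6.78 in tumour-associated replicates 1, 2 and 3, against 4.50, 3.88 and 4.32 in healthy-tissue replicates 1, 2 and 3. Tumour-associated replicates 2 and 3 were above every healthy-tissue array, while replicate 1 lay within the healthy-tissue range, so the groups overlapped. The means were 5.61 ± 1.37 and 4.23 ± 0.32 (SD, n = 3 arrays each), and the difference of 1.38 had a standard error of 0.67 and did not pass (limma adjusted p = 0.824). Without tumour-associated replicate 3 it was 0.79 and without tumour-associated replicate 1 it was 2.13.

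Slit2, the other Slit ligand of the set, had 3 probe sets that did not move together. The brightest (1424659_at) was at 2.86, 4.63 and 3.29 in tumour-associated replicates 1 to 3, against 3.08, 3.49 and 3.70 in healthy-tissue replicates 1 to 3. A single tumour-associated array, replicate 2, stood above the rest, and the other tumour-associated arrays were below background. The difference was 0.17 (limma adjusted p = 0.969), and it was -0.34 without tumour-associated replicate 2. The second (1458140_at) differed by -0.93, with its highest level, 4.84, in healthy-tissue replicate 2, and by -0.33 without that array. The third (1451430_at) was below background on every array.

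Ntn1, which encodes netrin-1, gave signal in every sample with little difference between groups. Its brighter probe set (1454974_at) was at 4.43, 4.38 and 4.13 in tumour-associated LECs, against 4.30, 4.59 and 3.51 in healthy-tissue LECs. All 6 levels were above background, the tumour-associated arrays lay inside the healthy-tissue range, and the difference was 0.18 with a 95% interval of -0.65 to 1.02. The dimmer probe set (1422987_at) was below background on every array and differed by 0.31.

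Ntn4, the gene of the basement membrane protein netrin-4, had its highest levels in healthy-tissue replicate 3 on both probe sets. The brighter one (1450512_at) was at 3.51, 3.64 and 3.76 in tumour-associated LECs, against 3.05, 4.10 and 4.75 in healthy-tissue replicates 1, 2 and 3, a difference of -0.33 (limma adjusted p = 0.924). The other (1439794_at) was at 1.90, 3.68 and 2.18 in tumour-associated LECs, against 2.88, 2.85 and 6.86 in healthy-tissue LECs. Its difference of -1.61, the most negative of the 20, rested on that single array, since without healthy-tissue replicate 3 it was -0.28. Averaged over both probe sets, Ntn4 differed by -0.97. That array was also the highest in keratinocyte markers (8.03, against 7.42 and 7.55 in the other healthy-tissue arrays), and their part in the Ntn4 signal was not tested.

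**Figure D1:**
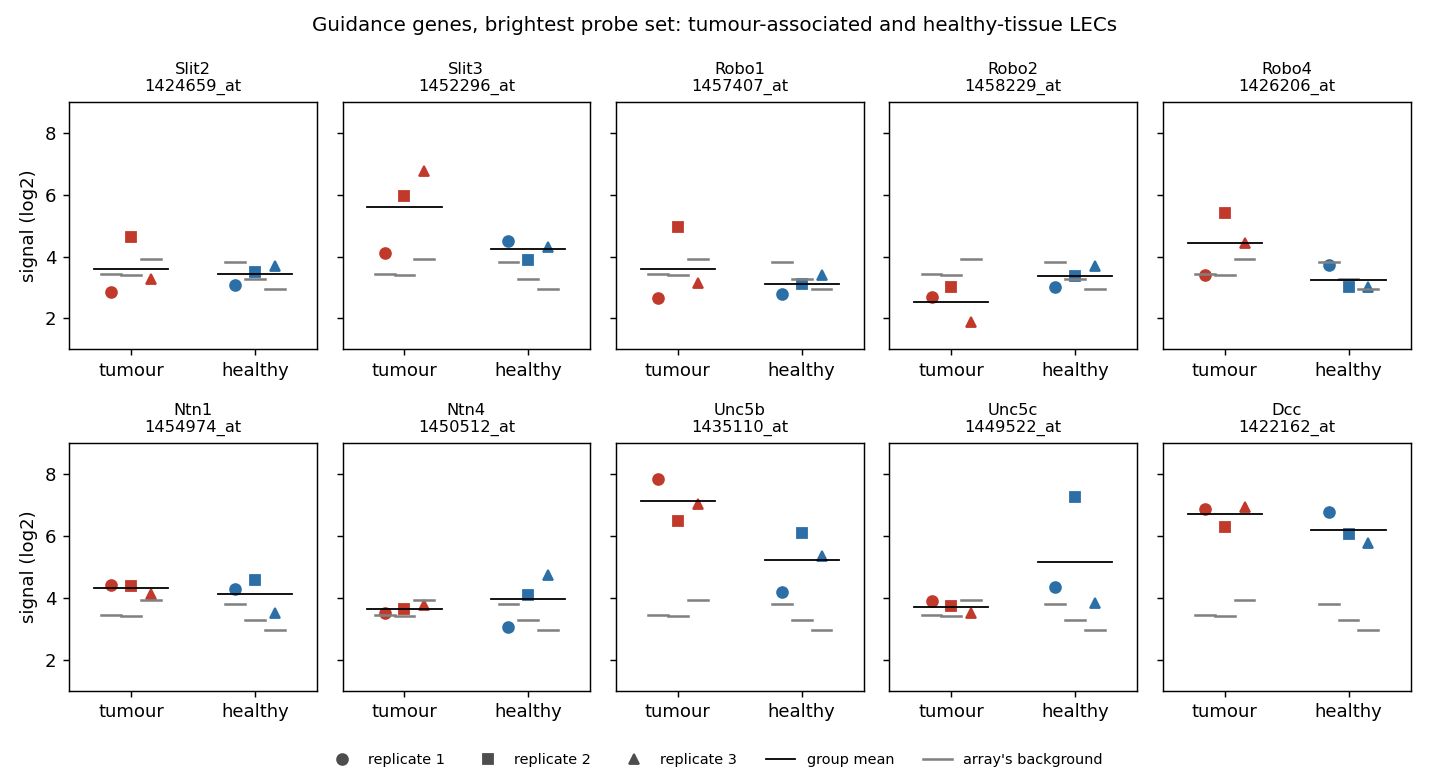
Levels (log2 signal) of the brightest probe set of each guidance gene on the 3 arrays of tumour-associated LECs (red, left) and the 3 of healthy-tissue LECs (blue, right); symbols give the replicate, black lines the group means and grey ticks each array's background. Only Unc5b and Robo2 have groups that do not overlap. Unc5b is at 6.48 to 7.83 in tumour-associated LECs against 4.18 to 6.11 in healthy-tissue LECs. Robo2 is at 1.87 to 3.01, below background on every tumour-associated array, against 3.03 to 3.71 in healthy-tissue LECs. By the brightest probe set, 6.58% of all genes do not overlap in the higher direction and 5.36% in the lower.

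Among the receptors, Unc5b had the largest difference in either direction. Its main probe set (1435110_at) was at 7.83, 6.48 and 7.03 in tumour-associated replicates 1, 2 and 3, against 4.18, 6.11 and 5.35 in healthy-tissue replicates 1, 2 and 3. Every tumour-associated array was above every healthy-tissue array, with 0.37 between the closest pair, tumour-associated replicate 2 and healthy-tissue replicate 2. Groups that do not overlap in this direction were found in 6.22% of all probe sets and, among the members, in 1 of 20. The means were 7.11 ± 0.68 and 5.21 ± 0.98 (SD, n = 3 arrays each), a difference of 1.90 with a standard error of 0.58 and a 95% interval of 0.53 to 3.27. Its unadjusted limma p of 0.0137 became an adjusted p of 0.653 over all probe sets, so the difference did not pass. With 1 array left out in turn it ranged from 1.38, without healthy-tissue replicate 1, to 2.35, without healthy-tissue replicate 2.

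The second Unc5b probe set (1453269_at) gave a smaller difference. It was at 4.69, 4.45 and 5.40 in tumour-associated LECs, against 4.02, 4.08 and 5.12 in healthy-tissue LECs, above background throughout. The groups overlapped, since healthy-tissue replicate 3 exceeded tumour-associated replicates 1 and 2, and the difference was 0.44 with a 95% interval of -0.57 to 1.45 (limma adjusted p = 0.894). Averaged over both probe sets, Unc5b differed by 1.17.

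The lowest Unc5b level was in healthy-tissue replicate 1, the array that was also lowest in LEC markers. To set the gene against the endothelial content of each capture, the mean of the 15 pan-endothelial markers of the same array was subtracted. Healthy-tissue replicate 1 was not the lowest in that mean (4.74, against 4.62 in healthy-tissue replicate 2). The mean was 1.21 higher in tumour-associated LECs. After subtraction, 0.146% of the 11624 genes above background on at least 3 arrays were higher without overlap, while 54% were lower without overlap. On that scale Unc5b was at 1.64, 0.76 and 1.21 in tumour-associated LECs, against -0.56, 1.49 and 0.61 in healthy-tissue LECs. The groups then overlapped, because healthy-tissue replicate 2 lay above tumour-associated replicates 2 and 3, and the difference was 0.69 (exact two-sided permutation p = 0.4, where 3 against 3 arrays allow no p below 0.1). Without healthy-tissue replicate 1 it was 0.15, and without healthy-tissue replicate 2 it was 1.18. With LEC markers as the scale it was 0.51 (exact permutation p = 0.5).

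Robo4, the endothelial Robo receptor, is represented by 1 probe set (1426206_at). It was at 3.42, 5.41 and 4.44 in tumour-associated replicates 1, 2 and 3, against 3.73, 3.02 and 3.02 in healthy-tissue replicates 1, 2 and 3. Tumour-associated replicates 2 and 3 and, by 0.05, healthy-tissue replicate 3 were above their background, and healthy-tissue replicate 1 exceeded tumour-associated replicate 1. The means were 4.43 ± 0.99 and 3.25 ± 0.41 (SD, n = 3 arrays each), a difference of 1.17 (standard error 0.53, limma adjusted p = 0.805). Without tumour-associated replicate 2 it was 0.68, and without tumour-associated replicate 1 it was 1.67. Relative to the pan-endothelial markers of the same array the difference was -0.04 (exact two-sided permutation p = 1, n = 3 arrays each).

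Robo1 and Robo2, receptors best known from neurons, were near background. The brightest Robo1 probe set (1457407_at) was at 2.65, 4.95 and 3.15 in tumour-associated LECs, against 2.79, 3.10 and 3.41 in healthy-tissue LECs. It was above background on 2 arrays, tumour-associated replicate 2 and healthy-tissue replicate 3, and differed by 0.48, or by -0.20 without tumour-associated replicate 2. Its other probe sets (1427231_at and 1445549_at) were above background on 1 array and on none, and differed by -0.44 and -0.01. Robo2 (1458229_at) was at 2.70, 3.01 and 1.87 in tumour-associated LECs, against 3.03, 3.38 and 3.71 in healthy-tissue LECs. Its groups did not overlap, as in 4.91% of probe sets in that direction, but the closest levels were 3.01 and 3.03 and no tumour-associated array was above background. The difference of -0.84 did not pass (limma adjusted p = 0.809).

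The brightest probe sets of Slit2, Robo1 and Robo4 had their highest level in tumour-associated replicate 2, whereas other probe sets of Slit2 (1458140_at) and Robo1 (1427231_at) were highest in healthy-tissue replicates 2 and 3. Tumour-associated replicate 2 was also the highest in macrophage markers (8.03, against 6.32 and 6.17 in the other tumour-associated arrays and 6.07 to 6.46 in healthy-tissue LECs). Among these, Cd68 (6.88) and Mrc1 (8.05) were higher in a healthy-tissue array, at 9.55 and 8.41. Tumour-associated replicate 2 was the highest in the mean of pericyte and smooth muscle markers (7.15, against 5.54 to 6.82 elsewhere). Acta2, Tagln and Pdgfrb were highest there, while Myh11, Rgs5, Cspg4 and Cnn1 were each higher on another array. Tumour-associated replicate 2 was also the highest in the mean of nerve and Schwann cell markers (5.15, against 4.59 to 5.07 elsewhere). That lead came from L1cam (6.02), while Sox10, S100b, Mbp and Ngfr were each higher on another array. Tumour-associated replicate 2 also had the largest gap between the 3' and 5' control probe sets of Gapdh, a sign of RNA or cDNA length. The gap was 4.10 in log2 there, against 2.15 and 2.29 in the other tumour-associated arrays and 2.77 to 3.72 in healthy-tissue LECs. Slit3 and Unc5b did not share this pattern, being highest in tumour-associated replicates 3 and 1. The part of these cell types or of RNA length in these levels was not tested.

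Unc5c, another netrin receptor of the Unc5 family, was lower on average in tumour-associated LECs through 1 array. Its brighter probe set (1449522_at) was at 3.91, 3.72 and 3.51 in tumour-associated LECs, against 4.36, 7.27 and 3.83 in healthy-tissue replicates 1, 2 and 3. Without healthy-tissue replicate 2 the difference of -1.44 (limma adjusted p = 0.865) became -0.38. The same array was the highest in fibroblast markers (10.29, against 8.21 and 8.87 in the other healthy-tissue arrays and 5.90 to 9.55 in tumour-associated LECs), whose part was not tested. The second probe set (1419592_at) did not share that peak: it had 2.05 in healthy-tissue replicate 2 and its highest level, 4.06, in healthy-tissue replicate 1.

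Dcc, the netrin receptor of commissural axons, showed signal on 1 of its 3 probe sets only. That probe set (1422162_at) was at 6.88, 6.28 and 6.92 in tumour-associated LECs, against 6.78, 6.07 and 5.76 in healthy-tissue LECs. Its other probe sets (1441572_at and 1440487_at) lay between 1.23 and 2.08 and were below background on all 6 arrays. The bright probe set differed by 0.49 with a 95% interval of -0.39 to 1.37, and its groups overlapped. Its 3 highest levels, in tumour-associated replicates 3 and 1 and healthy-tissue replicate 1, fell on the 3 arrays with the highest background. Set against each array's background it stood 3.43, 2.86 and 3.00 higher in tumour-associated LECs, against 2.97, 2.79 and 2.79 in healthy-tissue LECs. Since the probe sets disagree, these data do not settle whether Dcc transcripts were present.

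**Figure D2:**
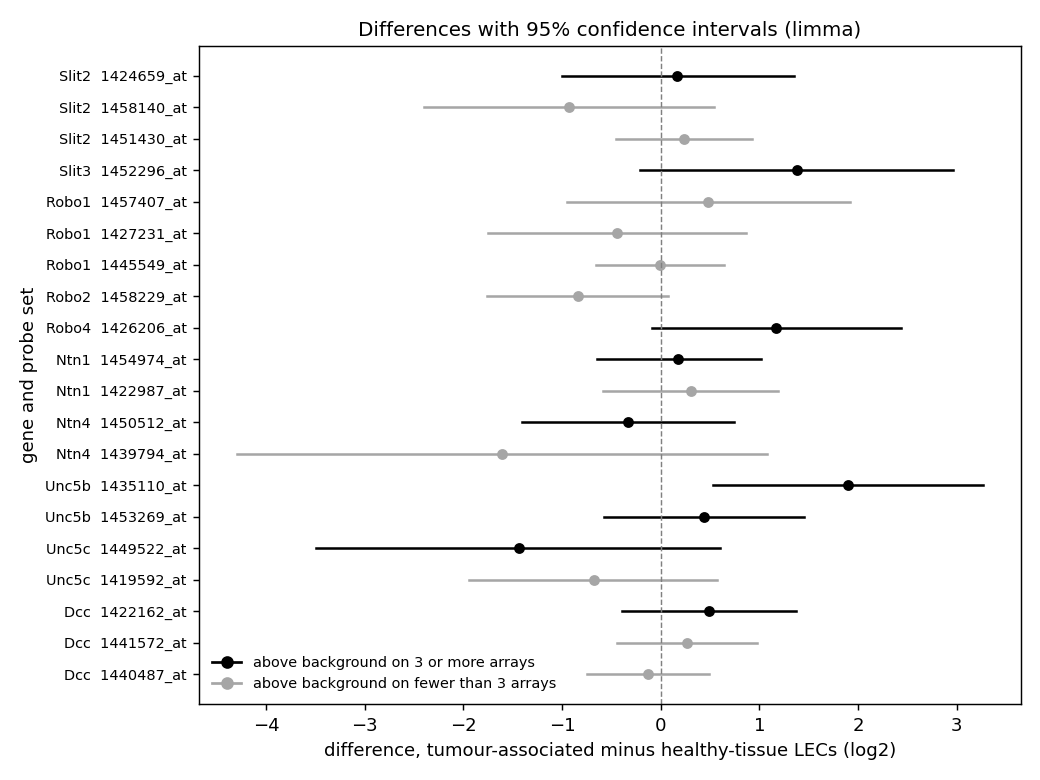
Difference (tumour-associated minus healthy-tissue LECs, log2) of all 20 probe sets of the guidance genes, with limma's 95% confidence intervals; black marks the 9 probe sets above background on at least 3 arrays and grey the rest. The interval of Unc5b 1435110_at (0.53 to 3.27) is the only one that leaves out 0, and no adjusted p is below 0.653.

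Relative to the pan-endothelial markers of the same array, 3 of the 8 members compared (Ntn1, Ntn4 and Unc5c) were lower in tumour-associated LECs without overlap. That count is no result about the members, since 54% of the 11624 genes above background on at least 3 arrays were lower without overlap on this scale. The pan-endothelial mean itself was 1.21 higher in tumour-associated LECs, so an unchanged gene would be lower by that amount. The difference was -1.54 for Ntn4 (1450512_at), -1.03 for Ntn1 and -2.65 for Unc5c, each with the smallest exact permutation p that 3 against 3 arrays allow, 0.1, and the corresponding unscaled differences were -0.33, 0.18 and -1.44. Without healthy-tissue replicate 2 the value for Unc5c was -1.55. With LEC markers as the scale Ntn1 overlapped (-1.21, exact permutation p = 0.2), while Slit2 did not (-1.22, exact permutation p = 0.1), and 51.8% of genes were lower without overlap. On either scale 0 of the 8 members were higher without overlap, where 0.146% of genes were so with pan-endothelial markers and 0.129% with LEC markers. Relative to the pan-endothelial mean, Slit2 differed by -1.04 (exact permutation p = 0.3), Dcc by -0.72 (p = 0.2 by the exact permutation test) and Slit3 by 0.17 (exact permutation p = 0.9). These 8 members were those above background on at least 3 arrays, and the p-values of the 8 comparisons were not adjusted since none could pass. These ratios show unequal change within an array only.

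**Figure D3:**
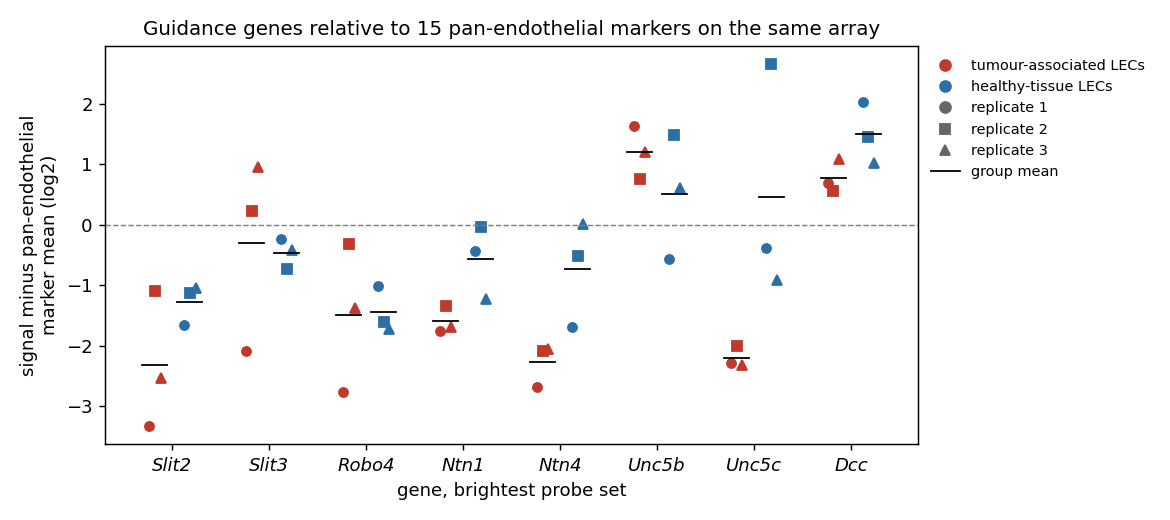
Level of the brightest probe set minus the mean of 15 pan-endothelial markers on the same array (log2) for the 8 guidance genes above background on at least 3 arrays; red is tumour-associated LECs, blue healthy-tissue LECs, symbols the replicate and black lines the means. Ntn1, Ntn4 and Unc5c lie lower in all tumour-associated arrays, as 54% of genes do on this scale, and which members separate depends on the marker list, since Slit2 separates and Ntn1 overlaps with LEC markers.

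Genes that act with these cues and receptors were described from a list of 49 partners, of which 46 were measured. By the brightest probe set of each, 30 (65.2%) were higher and 16 lower in tumour-associated LECs, with a median difference of 0.15. Over all 18193 genes 57.3% were higher and the median was 0.08. The partners were more often detected, with 65.2% above background on all 6 arrays against 42.8% of all genes. The shares of all genes given here therefore come from a dimmer set. None passed (limma adjusted p of at least 0.596), where 0.0055% of genes did, and 6 had an unadjusted p under 0.05, where 7.5% of genes did. Of these 6, 5 were higher and 1 was lower, where 3.22% of genes had such a p and were higher and 4.28% had one and were lower. The groups did not overlap in the higher direction for 5 partners (Git1, Pxn, Arf6, Srgap2 and Unc5d, the last below background on every array), where 6.58% of genes did so, and in the lower direction for 0, where 5.36% of genes did so.

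Signalling from Slit2 through Robo4 is known to run over paxillin and the adaptor Git1 to restrain the small GTPase Arf6, and these partners were among those with the smallest p. Git1 was at 6.03, 6.96 and 5.50 in tumour-associated LECs, against 4.63, 4.92 and 4.34 in healthy-tissue LECs (difference 1.53, limma adjusted p = 0.596). Pxn, the gene of paxillin, was at 5.17, 6.40 and 6.33 in tumour-associated LECs, against 4.86, 4.90 and 4.70 in healthy-tissue LECs (difference 1.15, limma adjusted p = 0.709). In both genes every tumour-associated array was above every healthy-tissue array, but the other Pxn probe sets differed by -0.28 and 0.80. Arf6 and Srgap2, a GTPase-activating protein that binds Robo receptors, are named after their values were seen, because they complete the 6 partners with an unadjusted p under 0.05. Arf6 was at 11.23, 11.03 and 12.00 in tumour-associated LECs, against 10.34, 9.91 and 10.90 in healthy-tissue LECs (difference 1.04, limma adjusted p = 0.745), and its other probe sets ranged from -1.15 to 0.86. Srgap2 was at 7.77, 7.00 and 7.59 in tumour-associated LECs, against 6.98, 5.23 and 6.42 in healthy-tissue LECs (difference 1.24, limma adjusted p = 0.76), and its other probe sets ranged from -0.02 to 1.01. The groups of both did not overlap.

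Flrt2, a membrane protein that binds Unc5 receptors, was at 4.07, 4.86 and 2.91 in tumour-associated LECs, against 6.05, 6.23 and 4.76 in healthy-tissue LECs (difference -1.73, limma adjusted p = 0.713). Its groups overlapped at 4.86 and 4.76, and its other probe sets differed by 0.15 and -0.86. Neo1, which encodes neogenin, the netrin receptor related to Dcc, was at 6.25, 8.04 and 7.60 in tumour-associated LECs, against 6.30, 5.84 and 4.87 in healthy-tissue LECs (difference 1.63, limma adjusted p = 0.713). Its 4 other probe sets ranged from -1.19 to 2.55. Other Slit, Robo, netrin and Unc5 genes on the list were Slit1 (0.54), Robo3 (-0.03), Ntn3 (-0.01), Ntn5 (0.29), Ntng1 (0.26), Ntng2 (-0.01), Unc5a (0.51), Unc5d (0.51) and Unc5cl (0.03), where each value is a difference, and none passed. Of these, Ntn3, Unc5d and Unc5cl were below background on every array. Robo3 was above it on 2 arrays, and Ntng1 and Ntng2 on 3 each.

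**Figure D4:**
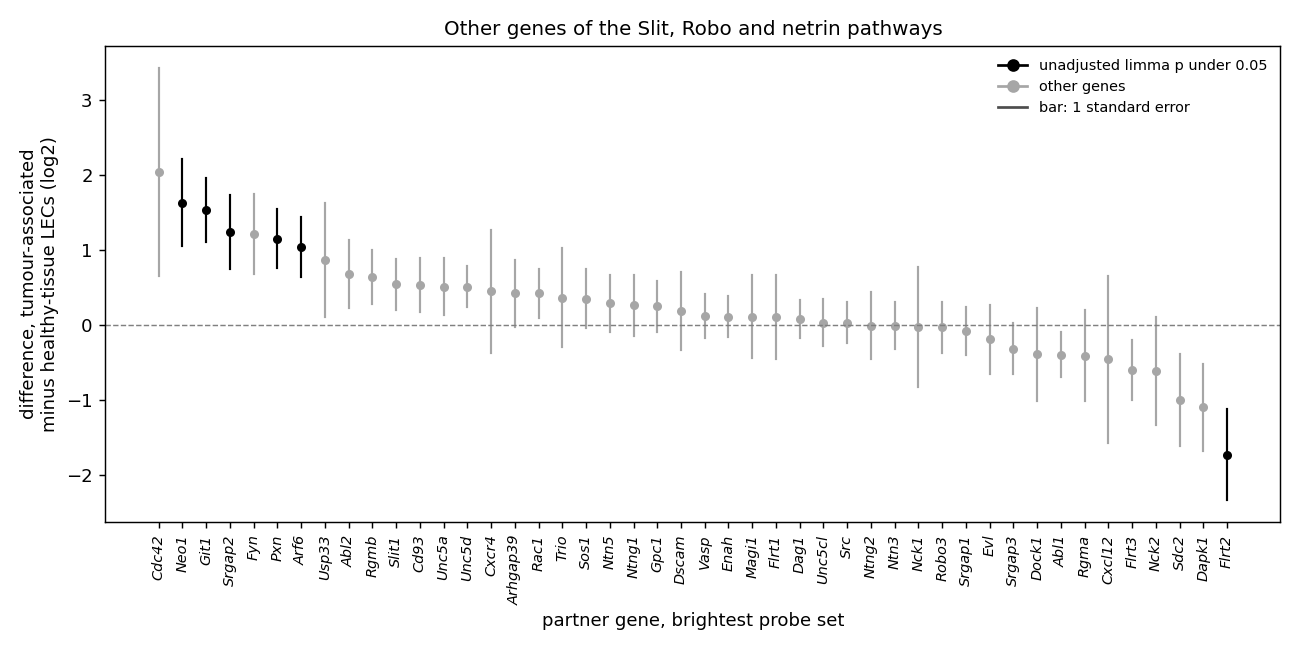
Difference (tumour-associated minus healthy-tissue LECs, log2) of the brightest probe set of 46 partner genes, sorted by size, with bars of 1 standard error; black marks the 6 genes with an unadjusted limma p under 0.05. Differences run from -1.73 (Flrt2) to 2.04 (Cdc42), whose healthy-tissue arrays spread from 4.19 to 10.23, and none passed after adjustment.

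For the guidance genes above background on all 6 arrays, the genes with the most similar profile were taken by Pearson's r over the 6 arrays among 7793 other genes that were also above background throughout. For Unc5b these were Ctnnb1, the beta-catenin gene (r = 0.999), Ppm1g, a protein phosphatase gene (r = 0.973), and Cadm1, a cell adhesion gene (r = 0.961). Ctnnb1 spanned a much smaller range, 9.63 to 9.95 in tumour-associated LECs and 9.08 to 9.52 in healthy-tissue LECs. For Slit3 they were Kctd5, Gfra3 and Tspo (r = 0.991, 0.963 and 0.961), for Ntn1 Hnrnpab, Esr2 and Rfk (0.986, 0.983 and 0.982), and for Dcc Gpr135, Npy and Arrb2 (0.994, 0.993 and 0.992). The endothelial gene Cdh5 had r = 0.544 with Unc5b and the lymphatic receptor gene Flt4 had r = 0.796. These values describe 6 arrays that share the group difference, and among this many genes a high r is no finding in itself.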

How the data were processed

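Per the labels' protocols, LYVE-1-stained LECs were laser-captured, RNA was purified on micro columns, amplified in 1 round of Ribo-SPIA and biotin-labelled. The authors deposited intensity values for 45101 probe sets, made with RMA per the submitters' processing notes. Array medians of 9.49 to 10.93 and values far above what log2 allows show a linear scale. Neither software versions nor filters are given in the sources used. RMA as usually run makes arrays alike in distribution, which hides differences in RNA amount, but the deposited arrays still differed in median and background.

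The log2 of each deposited value was used, with no pseudocount. The 64 control probe sets were left out, and the contrast was fitted in limma (version 3.58.1, R 4.3.3, two-sided eBayes test after lmFit with 2.82 prior degrees of freedom), adjusted by Benjamini-Hochberg over all 45037 probe sets at a threshold of 0.05, without a block. The script was tested on simulated data. Exact permutation tests used scipy 1.17.1. Symbols came from the platform annotation, and a gene's brightest probe set had the highest mean over all arrays. Every member probe set is named, with the 4 partners of smallest p, and Arf6 and Srgap2 outside that rule, and the 3 most similar genes per member. Pak1, Ptk2 and Adora2b, on the partner list, had no probe set with a single symbol. Members and lists were chosen with earlier results of these data known. Promoters came from RefSeq. Alternatives were quantile normalization, median centring, a filter on dim probe sets, a replicate block, trend and robust moderation, array weights, each array left out, and other gene summaries and marker scales.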

Additional observations from a re-analysis of the deposited data

How the results depend on the processing

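No member probe set was called under any alternative run. Over 109 differences recomputed under the 6 settings that keep all arrays, 107 kept their direction. The exceptions were under array weights, where Slit2 1424659_at had -0.15 and Robo1 1445549_at 0.15. The lowest member adjusted p of these settings was 0.314, for Unc5b with array weights. With 1 array left out, 113 of 120 kept their direction. The ranges of those that did not were -0.34 to 0.54 for Slit2 1424659_at, -0.20 to 0.95 for Robo1 1457407_at, -0.14 to 0.12 for Robo1 1445549_at, -0.13 to 0.41 for Ntn1 1454974_at and -0.79 to 0.06 for Ntn4 1450512_at. The mean over all probe sets of a gene turned Slit2 to -0.17 and gave Ntn4 -0.97, Robo1 0.01 and Dcc 0.21. Relative to the pan-endothelial mean, Slit3 ranged from -0.46 to 1.06 and Robo4 from -0.63 to 0.60 with 1 array left out, and Slit3 had -0.02 on the LEC marker scale.

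Over the whole table, 2 probe sets were called, against 0 after centring, 0 with the replicate block, 1 with trend and robust moderation, 22 with array weights, 21 after the filter, which tests fewer probe sets, and 0 to 23 with 1 array left out. The cause of the other shifts was not tested. The labels tie replicate numbers to no shared animal or day, so the numbers were not taken as pairs. Same-numbered arrays of the groups had correlations of 0.0439, 0.101 and -0.0127 between their deviations. Differently numbered arrays had -0.147 to 0.121. With the block, the lowest member adjusted p was 0.681. For 11 of the 20 probe sets, above background on fewer than 3 arrays, signal over background limits what a difference can show. Of all 45037 probe sets, 22178 were above background on at least 3 arrays.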
